A study of Mus musculus with 46 samples.

Results

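Skeletal muscle genes were measured in 46 AB1-HA tumors, a murine mesothelioma line grown under the skin of BALB/c mice (BALB/cArc in the methods). The set held 36 genes that were listed by name for their known place in the muscle fibre, and all 36 were found among the 46011 entries of the count table. They were 11 genes of the thick filament and its light chains, 13 of the thin filament, Z disc and cytoskeleton, 7 of excitation and calcium handling, and 5 of energy supply and oxygen. Mice carried a tumor on each flank and received cyclophosphamide (CY, 200 mg/kg) on day 10. One tumor was excised for RNA-seq on day 9, 13 or 17 (Day-1, Day+3 or Day+7 relative to CY), and the tumor left in place gave the response. Complete responders (CR) and the mice labelled PR (partial responders in the series text, progressors in the methods) made 13 and 13 tumors at Day-1, 5 and 5 at Day+3, and 5 and 5 at Day+7. Every tumor came from a male mouse of 8 to 10 weeks, and all were of the 1 line. Each tumor came from a different mouse, so no animal was followed over time, and Day-1 tumors had not yet met CY. How much surrounding tissue came away with each tumor is not given in the sources used here.

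In a muscle fibre, thick filaments of myosin slide along thin filaments of actin that are anchored at the Z disc. A nerve impulse opens a voltage sensor in the surface membrane, calcium leaves its store in the sarcoplasmic reticulum, and the calcium pump returns it there. Fast and slow fibres use different forms of myosin, of calcium-binding calsequestrin and of the light chains, and heart muscle shares several of the slow forms. Skeletal muscle is not a tissue of mesothelioma, but a thin muscle sheet lies beneath the skin of the mouse where subcutaneous tumors grow. In bulk tumors, fewer cells of a type and less RNA per cell cannot be told apart.

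Libraries held 10227681 to 14218987 counts at Day-1, 15412744 to 18748688 at Day+3 and 16047930 to 19446596 at Day+7 over the entries used, so time point and depth cannot be told apart. Tumors of Day+3 and Day+7 had all met CY and were older than the Day-1 tumors, so CY and tumor age cannot be told apart either. No 2 libraries held identical counts. In 16 tumors, 10 of them Day-1, Krt5, a keratin of the basal skin layer, lay above 10 CPM, a count scaled to library size, and the numbers of muscle genes called between groups are also given without them. Replicates are separate mice, and p-values refer to the spread between them. CPM of 1 gene can be compared between tumors, and levels are compared between genes only after division by the length of the longest transcript in kilobases.

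The muscle genes were present in all tumors at a low share. Together they took 0.0327% of the counts in the lowest tumor, CT4 of the PR Day-1 group, and 0.337% in the highest, CT7_8 of the CR Day+7 group. Summed over the 36 genes, the level was 416, 894 and 2019 CPM in CR Day-1 tumors (lowest, median and highest of 13) and 314, 666 and 1268 CPM in PR Day-1 tumors. At Day+3 the sum ran from 439 to 1114 CPM in CR tumors and from 568 to 761 CPM in PR tumors. At Day+7 it ran from 771 to 3712 CPM in CR and from 1010 to 2284 CPM in PR tumors. The ranges of CR and PR tumors overlapped at each time point.

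Among the heavy and light chains of myosin, forms of fast fibres had higher levels per kilobase than forms of slow fibres. Per kilobase of transcript, mean levels over the 46 tumors were led by Acta1, the actin of the skeletal muscle thin filament (104 CPM per kilobase). Mylpf, a light chain of fast myosin, followed with 47.5 CPM per kilobase, Des, the intermediate filament desmin, with 39.0, and Eno3, the muscle enolase, with 36.4. Atp2a1, the calcium pump of fast fibres, had 27.2 and Myl1, another fast light chain, 27.0 CPM per kilobase. Among the myosin heavy chains, the per-kilobase level was 18.98 for Myh4 (type 2B fibres), 9.39 for Myh1 (type 2X), 3.63 for Myh2 (type 2A) and 0.0875 for Myh7 (slow fibres and heart). The slow light chains Myl2 and Myl3 had 0.173 and 0.0939 CPM per kilobase. Myl2 had no count in 6 tumors and Myl3 none in 18, where a count of 0 allows up to 3 counts. Both were too low to be tested in any comparison over the 46 tumors, and the other 34 muscle genes were tested. Of the 31-base words in the annotated transcripts, 37.9% of those of Myh1, 32.8% of Myh2 and 30.4% of Myh4 also occur in another gene, mostly in each other and in Myh8, so reads of these heavy chains may have been divided among them with error. For Myh7 the shared part was 22.9%, nearly all with the heart heavy chain Myh6, and for Myl1 it was 14.5%, all with 1 pseudogene.

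The label of the set was checked against 40 other skeletal muscle genes that it does not hold. Of these, 38 were tested, and their mean level followed that of the 34 muscle genes across the 46 tumors, after each group's mean was removed, with a Pearson r of 0.989 and a Spearman rho of 0.975 (0.987 for r without tumors CT7_8 and CT7, the 2 farthest from the median). These tumors share 1 scaling to library size, and the correlations below are descriptions. For the 8 tested of 12 heart genes r was 0.275 and rho 0.208 over the 46 tumors. Their rho was -0.048 at Day-1, 0.370 at Day+3 and 0.661 at Day+7 (26, 10 and 10 tumors). At Day+7 r was 0.734, and 0.499 without CT7_8 and CT7_5. Myl7, the atrial light chain, was not tested and lay below the floor of 3 counts in the median tumor of every group.

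**Figure D1:**
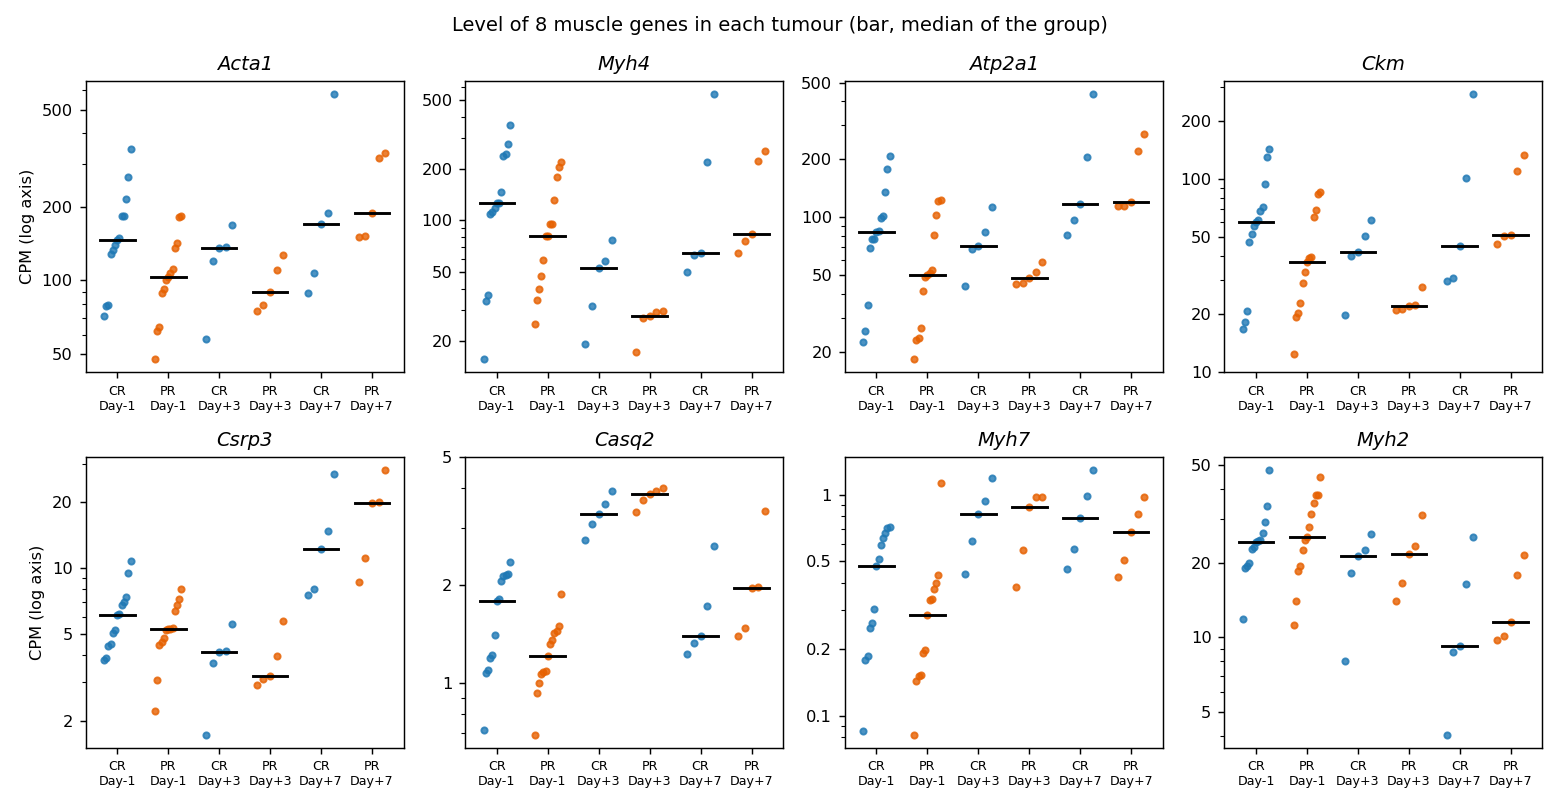
CPM of 8 muscle genes on log axes in each of the 46 tumors, by group (blue CR, orange PR), 1 point per tumor with a bar at the group's median. Myh4 and Ckm are lowest at Day+3, Casq2 is highest at Day+3, where all 10 tumors lie above all Day-1 tumors, and tumor CT7_8 is the highest point of the CR Day+7 group for Acta1, Myh4, Atp2a1 and Ckm.

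Muscle genes varied between tumors of 1 group more than most genes did. The biological coefficient of variation (the spread between tumors of a group beyond counting error) had a median of 0.438 over the 34 muscle genes and of 0.148 over all 13194 genes tested, and each of the 34 lay above that median. Myh4 had the widest spread (0.666). In CR Day-1 tumors it measured 15.7, 126 and 358 CPM (lowest, median, highest), and in PR Day-1 tumors 24.9, 81.5 and 219.9 CPM. Casq2, the calsequestrin of slow fibres and heart, had the narrowest (0.194), with 0.714, 1.79 and 2.36 CPM in CR and 0.688, 1.21 and 1.88 CPM in PR Day-1 tumors.

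Most of the spread was shared. For 29 of the 34 genes, Spearman's rho with the mean of the other muscle genes, over 46 tumors and with group means removed, was 0.685 to 0.970 (median 0.91). It was 0.970 for Myl1, 0.965 for Atp2a1 and 0.962 for Mylpf. In the CR Day+7 tumor CT7_8 all 34 genes lay above their group's mean, by 1.33 on the log2 scale on average. The CR Day-1 tumor CT7 had 33 of 34 above, with a mean of 0.99, and the PR Day-1 tumor CT17 had 32 of 34 above, with a mean of 0.81. At the other end, the PR Day-1 tumor CT4 had 0 of 34 above, with a mean of -0.93, and the CR Day-1 tumor CT8 had 3 of 34 above, with a mean of -0.96.

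A group of 5 genes did not follow the rest. Spearman's rho was 0.292 for Myh2, 0.266 for Csrp3 (a LIM protein of the Z disc), 0.259 for Ankrd2 (a stretch-responsive ankyrin repeat protein), 0.240 for Casq2 and -0.239 for Myh7. Csrp3, Ankrd2, Casq2 and Myh7 are used mainly in slow fibres or heart, but Mybpc1, the slow form of myosin-binding protein C, followed the other genes (rho 0.958), and Myl2 and Myl3 could not be tested. In the PR Day-1 tumor CT16, for example, Myh2 and Csrp3 were at the lowest level of their group (11.2 and 2.23 CPM), whereas Des (97.0 CPM), Mb (22.3 CPM) and Art1 (5.44 CPM) were at the highest. In CT7, where Acta1 reached 346 CPM, the highest of the Day-1 tumors, Myh7 was at the lowest of its group (0.0854 CPM). That value is 1 count, below the floor of 3 counts. Myh7 had 1 to 20 counts in each tumor, so its rho rests on low counts.

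**Figure D2:**
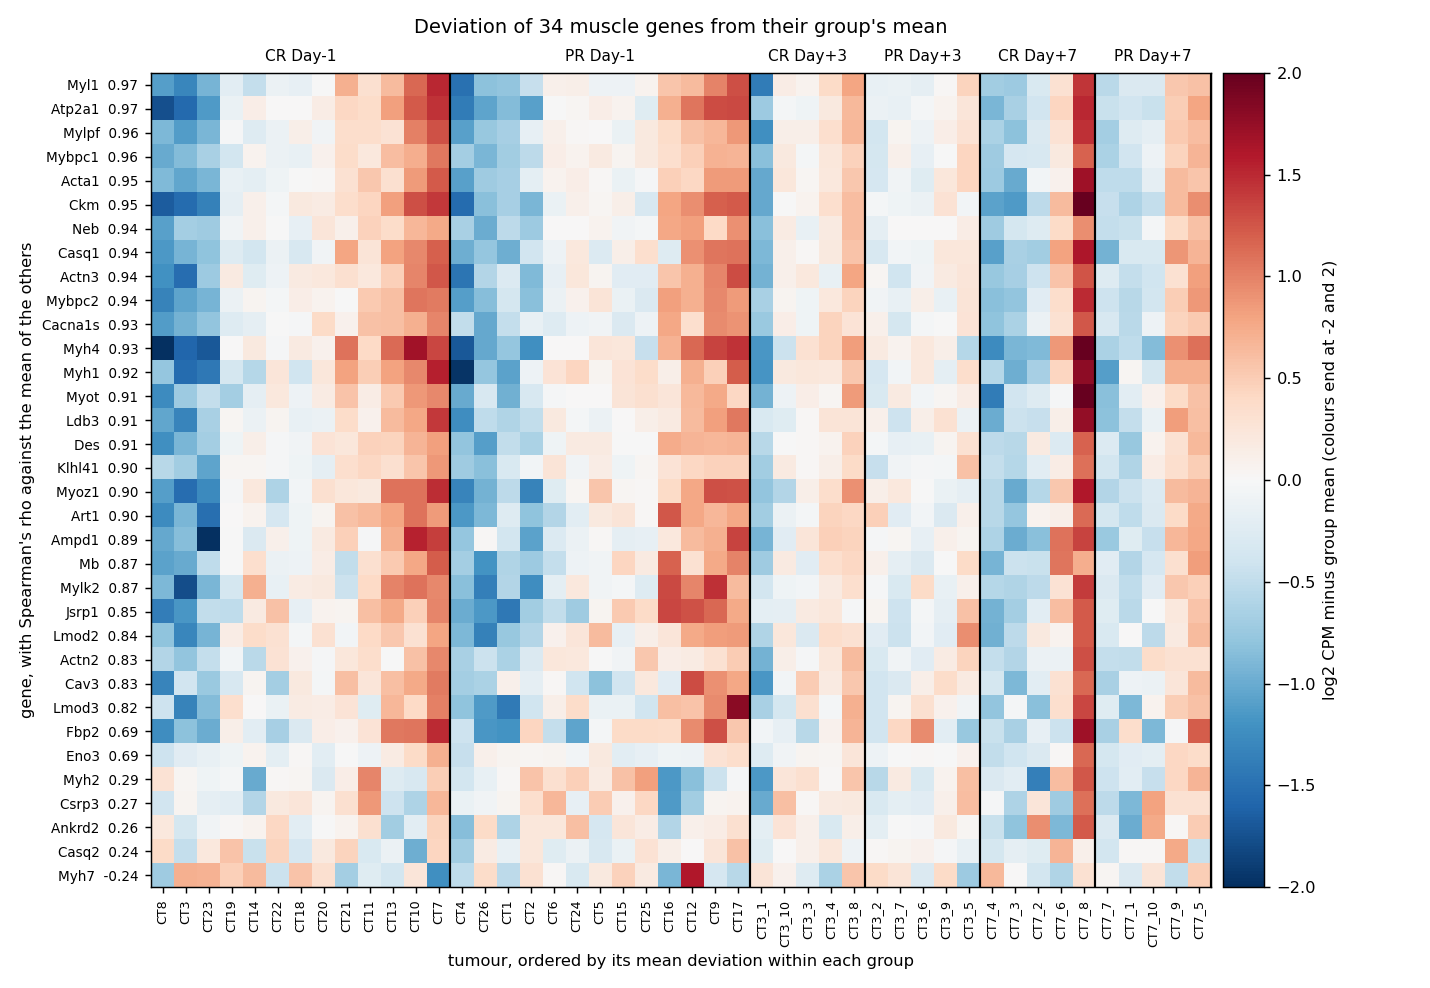
Log2 CPM of the 34 tested muscle genes (rows, ordered by rho, which is printed beside each name) minus the mean of the group, in 46 tumors (columns, ordered within each group), with red above and blue below the mean and colours ending at -2 and 2. The upper 29 rows change colour together from tumor to tumor, and the lowest 5 rows, Myh2, Csrp3, Ankrd2, Casq2 and Myh7, do not.

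Because most of these genes moved together, their promoters were read from RefSeq (GRCm38.p6), from 250 bases before to 50 bases after the start of each gene. An entry was held for 28 of the 36 genes, and where a gene had more than 1 entry only the first was read. The E box CANNTG, the letters bound by myogenic factors of the MyoD family and by many other factors, was present in 25 of 28 (89.3%) and in 72.2% of 27025 promoters. The form CAGCTG, which is 1 of the forms of CANNTG, was present in 17 of 28 (60.7%) and in 16.1% of all. The MEF2 motif and the CArG box (both strands searched) were each in 4 of 28 (14.3%), against 1.89% and 1.57% of all promoters. Of the 29 genes that moved together, 21 had a promoter and 16 of these held CAGCTG. Of the 5 that did not, all had a promoter and 0 held CAGCTG in the entry read, while 4 held another form of CANNTG. Myh7 and Csrp3 of these 5, and Mb and Ldb3 of the genes that moved together, had further entries that were not searched. These genes were split by rho after their values were seen, and a match is a run of letters and not a measured site. The promoters of the 3 genes that followed the others most closely and of 3 of the 5 that did not follow, 5′ to 3′ on the gene's strand and with each CANNTG in capitals, were:
Myl1, chr1:66945007-66945306, reverse strand: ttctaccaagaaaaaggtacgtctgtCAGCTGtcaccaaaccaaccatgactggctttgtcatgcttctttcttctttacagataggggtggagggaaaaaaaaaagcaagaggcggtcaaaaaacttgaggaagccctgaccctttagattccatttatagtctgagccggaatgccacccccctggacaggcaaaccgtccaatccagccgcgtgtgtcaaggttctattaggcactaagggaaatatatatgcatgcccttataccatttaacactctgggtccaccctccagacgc
Atp2a1, chr7:126463024-126463323, reverse strand: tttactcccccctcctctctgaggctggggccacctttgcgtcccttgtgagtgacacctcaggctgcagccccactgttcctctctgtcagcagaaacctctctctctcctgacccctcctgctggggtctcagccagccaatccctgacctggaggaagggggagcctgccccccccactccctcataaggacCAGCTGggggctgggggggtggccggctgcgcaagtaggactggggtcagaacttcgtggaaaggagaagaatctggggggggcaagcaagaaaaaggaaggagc
Mylpf, chr7:127211358-127211657, forward strand: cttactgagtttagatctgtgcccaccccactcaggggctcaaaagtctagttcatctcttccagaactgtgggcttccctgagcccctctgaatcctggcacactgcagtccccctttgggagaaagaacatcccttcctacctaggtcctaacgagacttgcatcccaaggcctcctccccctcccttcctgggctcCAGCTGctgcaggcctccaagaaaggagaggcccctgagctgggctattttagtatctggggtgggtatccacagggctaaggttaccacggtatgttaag
Ankrd2, chr19:42035777-42036076, forward strand: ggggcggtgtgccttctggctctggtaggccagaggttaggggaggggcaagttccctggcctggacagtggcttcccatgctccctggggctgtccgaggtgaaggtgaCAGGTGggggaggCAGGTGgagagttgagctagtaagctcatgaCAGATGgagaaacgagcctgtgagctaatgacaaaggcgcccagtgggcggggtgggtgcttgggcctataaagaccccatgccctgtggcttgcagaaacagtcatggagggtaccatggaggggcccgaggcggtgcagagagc
Casq2, chr3:102086165-102086464, forward strand: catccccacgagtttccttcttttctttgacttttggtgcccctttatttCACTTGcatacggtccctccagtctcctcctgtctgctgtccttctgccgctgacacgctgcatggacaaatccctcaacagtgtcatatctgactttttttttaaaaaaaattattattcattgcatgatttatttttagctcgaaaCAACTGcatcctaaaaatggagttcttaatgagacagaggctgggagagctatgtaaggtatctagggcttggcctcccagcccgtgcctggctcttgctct
Myh7, chr14:54994577-54994876, reverse strand: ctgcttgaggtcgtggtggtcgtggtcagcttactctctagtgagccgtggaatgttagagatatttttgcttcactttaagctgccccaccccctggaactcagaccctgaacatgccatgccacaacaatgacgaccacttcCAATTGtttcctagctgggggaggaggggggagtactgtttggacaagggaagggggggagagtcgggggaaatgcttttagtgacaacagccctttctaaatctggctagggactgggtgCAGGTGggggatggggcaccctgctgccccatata
The promoters of Myl1, Atp2a1 and Mylpf each held 1 CANNTG, and each time it was CAGCTG. Those of Ankrd2, Casq2 and Myh7 held 3, 2 and 2, and in none of these windows was it CAGCTG.

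Outside all lists, the genes whose level was most like the mean of the muscle genes included Ndrg2 (rho 0.930), Eef1a2 (0.916), Alpk3 (0.886), H19 (0.873), Fitm1 (0.855), Hjv (0.851), Ano5 (0.841), Limch1 (0.826) and Cap2 (0.823), over 46 tumors with group means removed. Genes of other cell types that lie next to muscle were read in the same way. The 12 fat cell genes followed the muscle genes with an r of 0.732 and a rho of 0.755 (r 0.754 without CT7_8 and CT7), and the 10 tested genes of nerve and Schwann cells with an r of 0.516 and a rho of 0.490. Keratinocyte genes did not, with an r of -0.102 and a rho of -0.065.

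T cell genes followed the muscle genes in tumors taken before CY, as did some other lists. Over the 26 Day-1 tumors, the 12 T cell genes had an r of 0.595 and a rho of 0.712 with the muscle genes (r 0.536 without CT8 and CT7). Within the 13 CR tumors rho was 0.692 and within the 13 PR tumors 0.731. At Day+3 rho was 0.273 and r 0.456 (-0.288 without CT3_1 and CT3_8), and at Day+7 rho was -0.394 and r -0.266 (-0.623 without CT7_8 and CT7_5), over 10 tumors each. The difference between time points was not tested. At Day-1 rho with the muscle genes was also 0.681 for fat cell genes and 0.621 for genes of nerve and Schwann cells. It was 0.404 for red blood cell, -0.011 for keratinocyte and -0.258 for mesothelial genes. At Day+3 rho was 0.697 for fat cell, -0.079 for nerve and Schwann cell and -0.539 for red blood cell genes. The T cell genes with the highest mean level over the 46 tumors were Lck, a kinase of the T cell receptor, Cd4, Cd8a and Cd3g, a chain of the receptor complex. Each of the 12 genes had equal weight in r and rho. Over the 46 tumors rho of the T cell list was 0.346, and rho of its single genes ran from 0.120 (Cd8a) to 0.461 (Cd2).

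**Figure D3:**
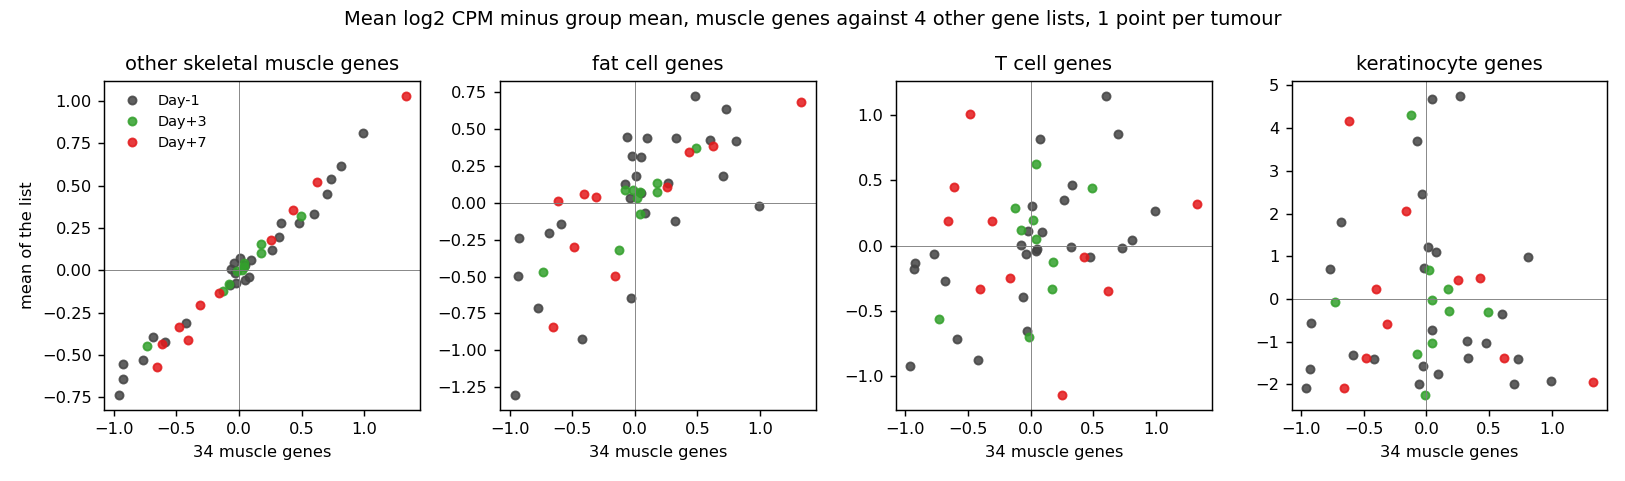
Mean log2 CPM minus the group mean of 4 gene lists (vertical axes) against that of the 34 muscle genes (horizontal axes), 1 point per tumor, coloured by time point. The other skeletal muscle genes lie along a line (r 0.989), fat cell genes rise with muscle genes (r 0.732), T cell genes do so in the Day-1 tumors (r 0.595), and keratinocyte genes show no trend (r -0.102).

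The first question of the design was whether CR and PR tumors differ before treatment. At Day-1, 30 of 31 tested muscle genes were higher in CR tumors, with a median log2 fold change of 0.51 against -0.01 over all 10777 genes tested, but 0 of 31 passed the false discovery rate of 0.1 (edgeR quasi-likelihood test, Benjamini-Hochberg adjustment, lowest adjusted p = 0.175), where 0.00928% of all genes passed. At an unadjusted p under 0.05 there were 15 of 31, and 1885 of all 10777 genes. DESeq2 and limma-voom also called 0 of 31, with lowest adjusted p = 0.115 and 0.162. Over all genes DESeq2 called many more than edgeR did at Day-1 (numbers in the last paragraph). These genes moved together from tumor to tumor, so their 30 directions are not independent of each other.

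In CR Day-1 tumors the mean level of the thin filament actin Acta1 was 163 CPM ± 78.1 (SD, n = 13), with 71.7, 147 and 346 CPM as lowest, median and highest. In PR Day-1 tumors the mean was 109 CPM ± 42.5 (SD, n = 13), with 47.8, 102.9 and 184 CPM. Its log2 fold change of 0.59 (standard error 0.231) had an adjusted p of 0.199 in edgeR, and 10 of 13 CR tumors lay above the PR median. Des measured 37.2, 95.4 and 154.5 CPM in CR tumors (lowest, median, highest) and 27.0, 57.5 and 97.0 CPM in PR tumors, a log2 fold change of 0.61 (standard error 0.218). Mb, the oxygen store myoglobin, measured 7.52, 15.8 and 37.1 CPM in CR and 4.16, 9.31 and 22.3 CPM in PR tumors, with 0.69 (standard error 0.259). The ranges of the 2 groups overlapped for each of these genes.

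Most other members were also higher in CR tumors, by unequal amounts. Myot, the Z disc protein myotilin, had a log2 fold change of 0.59, Neb, the ruler of the thin filament, 0.45, and Lmod3, a nucleator of thin filaments, 0.66. For the thick filament, Mylk2, the kinase of the myosin light chains, had 0.78 (standard error 0.325), Myh4 0.60, Myh1 0.51 and Mylpf 0.49. Myh2 was the only gene of the 31 that was not higher in CR tumors, with means of 25.2 CPM in CR and 26.9 CPM in PR. For calcium handling, Art1, an ADP-ribosyltransferase of the muscle surface, had 0.74, Atp2a1 0.66, Cacna1s, the voltage sensor, 0.58 and Casq1, the fast calsequestrin, 0.43. Ckm, the muscle creatine kinase, had 0.61. Smaller changes were those of Csrp3 (0.24), Eno3 (0.08) and Ankrd2 (0.02). Eno3 measured 37.9, 47.5 and 82.3 CPM in CR and 34.9, 49.5 and 61.4 CPM in PR tumors, and the ranges overlapped. None of these passed the test.

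Single tumors decided which genes passed. Without the CR tumor CT8 or the PR tumor CT12, Des and Myot passed (adjusted p = 0.0914 and 0.0982 without CT8, 0.0879 and 0.0981 without CT12, edgeR), and without the PR tumor CT16, Mb did (adjusted p = 0.0922). Those fits also called 4.13%, 8.07% and 4.07% of all genes. Leaving out the tumors above 10 CPM of Krt5 left 0 called.

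Some other lists moved in the same direction at Day-1. All 12 T cell genes were higher in CR tumors, with a median log2 fold change of 0.58, and 0 passed (12 at an unadjusted p under 0.05). Their summed level was 70.2, 136 and 241 CPM in CR (lowest, median, highest) and 47.3, 87.7 and 186 CPM in PR tumors, and each of the 12 had counts in every Day-1 tumor. All 9 tested fat cell genes were higher, with a median of 0.34 and sums of 221 to 551 CPM in CR and 233 to 449 CPM in PR tumors. The 7 tested keratinocyte genes were higher too, with a median of 0.42. Their sums were 46.1, 62.5 and 939.6 CPM in CR and 52.5, 62.3 and 643 CPM in PR tumors (lowest, median, highest). The highest were single tumors, CT21 in CR and CT15 in PR. Of the 40 other skeletal muscle genes, 31 of 34 tested were higher, with a median of 0.32 and 0 passing. Mesothelial genes were mixed, with log2 fold changes of -0.75 for Krt8, -0.26 for Msln, 0.08 for Efemp1 and 0.17 for Cdh11. Those of the tested red blood cell genes ran from -0.11 (Hbb-bt) to 0.11 (Hba-a1). No gene of these 2 lists passed. The part of these cell types in the difference of the muscle genes was not tested.

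At Day+3, 31 of 34 tested muscle genes were higher in CR tumors, with a median log2 fold change of 0.25 and 0 of 34 called (edgeR, lowest adjusted p = 1), where 0% of all 11839 genes were called. At an unadjusted p under 0.05 there were 8 of 34, and 256 of all genes. Of the 8, 7 were higher in CR and 1, Ankrd2, was lower. DESeq2 and limma-voom called 0 of 34 too. Ckm measured 19.7, 39.9, 41.8, 50.6 and 61.6 CPM in CR tumors and 21.02, 21.3, 21.9, 22.2 and 27.6 CPM in PR tumors. Of the 5 CR tumors, 4 lay above all PR tumors, and CT3_1, the CR tumor with the lowest sum of muscle genes, lay below them. The log2 fold change of Ckm was 0.91 (standard error 0.223, adjusted p = 1). Without CT3_1 it was 1.09 and passed (adjusted p = 0.0356), and it was then the only muscle gene to do so. Myh4 had 0.87, Atp2a1 0.61 and Acta1 0.37. All 12 fat cell genes were also higher in CR at Day+3 (median 0.38), and 0 of them passed. The 6 tested keratinocyte genes were lower in CR at Day+3 (median -3.70, 0 called), with sums of 89.98, 95.9 and 119 CPM in CR and 93.3, 113 and 1144 CPM in PR tumors (lowest, median, highest). The highest sum was that of 1 tumor, CT3_2, and the next in the PR group was 141 CPM. The part of these cell types was not tested.

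At Day+7 there was no common direction. Of 33 tested muscle genes 18 were higher in CR and 15 lower, the median log2 fold change was 0.004, and 0 were called (edgeR, lowest adjusted p = 0.967, 0 at an unadjusted p under 0.05 where 333 of all genes were), where 0% of all 11727 genes were called. DESeq2 and limma-voom also called 0. Acta1 measured 88.6, 108, 171, 189 and 579 CPM in CR tumors and 150.6, 152, 189, 317 and 333 CPM in PR tumors. CT7_8, with 579 CPM, was above all PR tumors, and the other 4 CR tumors lay at or under the PR median. The log2 fold change of Acta1 was 0.004 (standard error 0.48) with CT7_8 and -0.70 without it, and the median of the muscle genes was -0.47 without it.

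The difference between CR and PR was then compared between time points. At Day+3 against Day-1 it was smaller for 29 of 34 muscle genes (median -0.21), and 0 were called (edgeR, 1 at an unadjusted p under 0.05, 0% of all genes called). At Day+7 against Day-1 it was smaller for all 34 (median -0.49), and 0 were called (1 at an unadjusted p under 0.05, 0.00758% of all genes called). DESeq2 and limma-voom called 0 in both. For Des the difference of differences at Day+7 was -0.64 (standard error 0.395) and for Acta1 -0.58 (standard error 0.469), so a larger or a smaller difference at Day+7 could not be told from the spread between tumors.

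**Figure D4:**
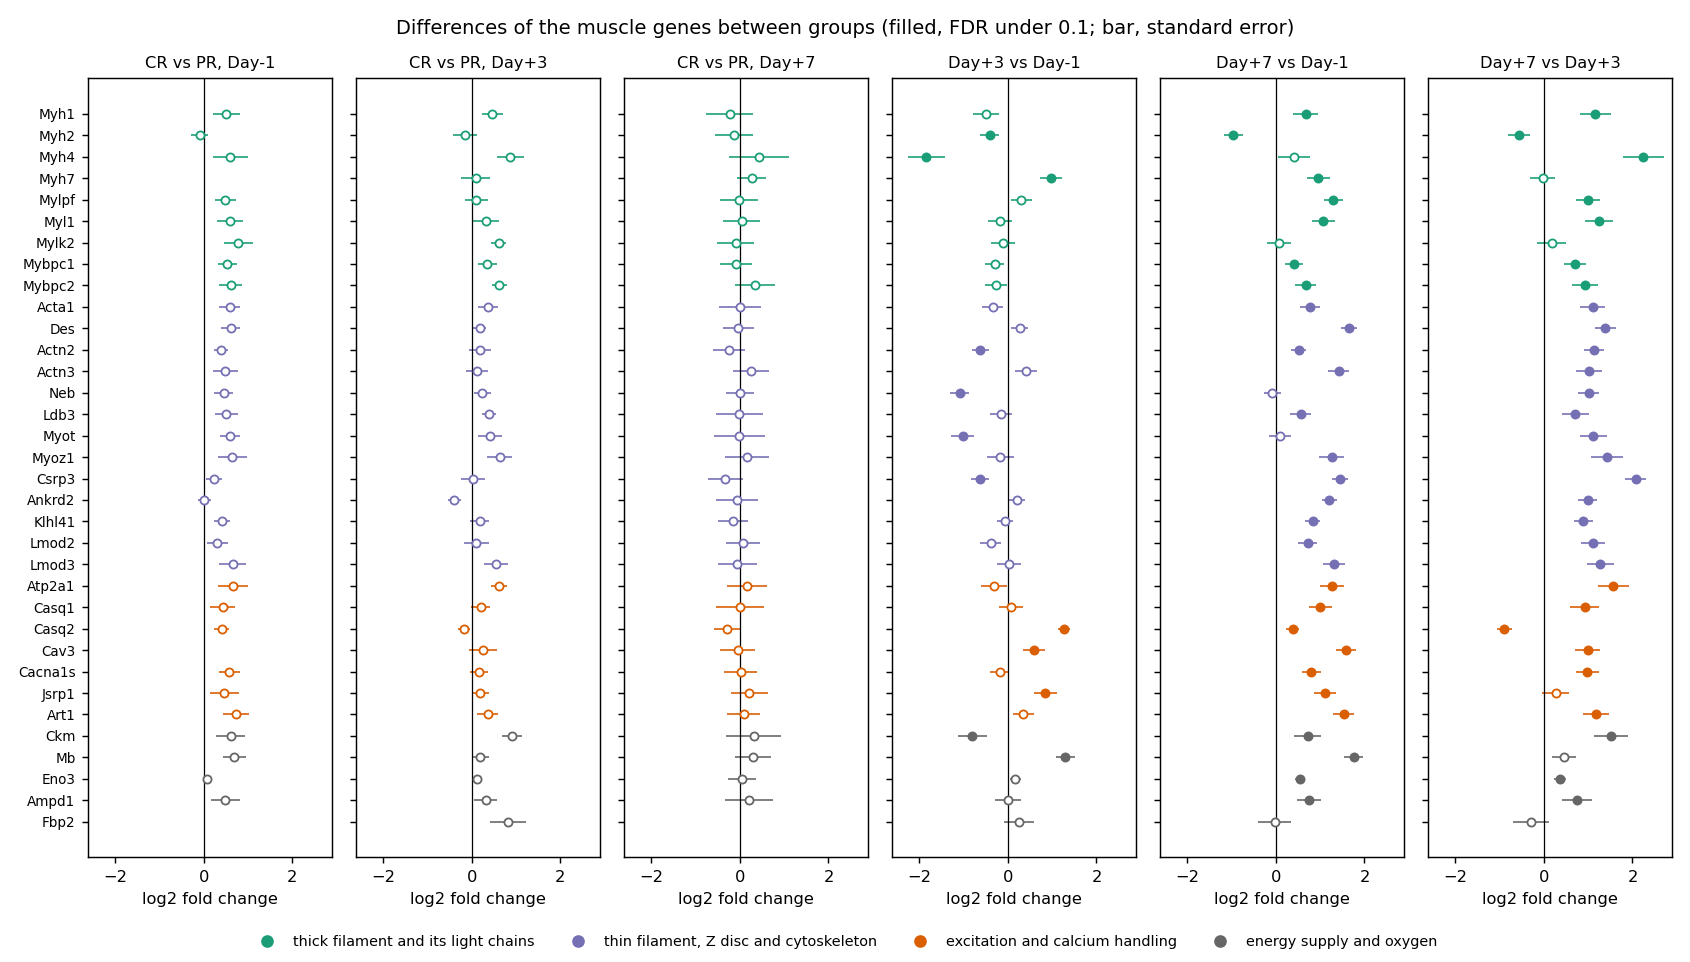
Log2 fold change (points) with its standard error (bars) of the tested muscle genes in 6 comparisons, coloured by role, with filled points for an FDR under 0.1. No point is filled between CR and PR tumors, where 30 of 31 lie right of 0 at Day-1, while 12, 29 and 29 are filled in the 3 comparisons of time points.

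The second question was how tumors differ between time points, with CR and PR given equal weight. At Day+3 against Day-1, 5 muscle genes were higher (37.9% of all genes tested) and 7 lower (39.6% of all genes), and 22 of 34 did not pass. With 77.6% of all genes called, a call by itself says little about muscle, and the members that moved apart from the others are described here. DESeq2 also called 5 and 7, and without the tumors above 10 CPM of Krt5 there were 6 and 6. Without the CR Day-1 tumor CT10 there were 9 higher and 6 lower, and limma-voom called 8 and 6.

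Casq2 rose most clearly at Day+3. It measured 2.77, 3.09, 3.33, 3.57 and 3.91 CPM in CR and 3.38, 3.69, 3.84, 3.905 and 4.001 CPM in PR tumors, above all 26 Day-1 tumors, whose highest value was 2.36. The log2 fold change was 1.27 (standard error 0.137, edgeR adjusted p = 2.56e-11). How many of all genes lay apart in this way was not counted. Mb rose by 1.30 (adjusted p = 1e-06), with 22.1 to 48.1 CPM in CR and 26.6 to 42.5 CPM in PR tumors at Day+3. Myh7 (0.99), Jsrp1, a protein of the junction between surface membrane and calcium store (0.84), and Cav3, the muscle caveolin (0.59), rose as well.

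Of the 7 genes that fell at Day+3, 4 were of the thin filament and Z disc and 2 of the thick filament. Myh4 measured 19.1, 32.0, 53.2, 58.4 and 77.2 CPM in CR and 17.2, 26.9, 28.0, 29.2 and 29.8 CPM in PR tumors at Day+3, below the Day-1 medians of 126 and 81.5 CPM. It fell by 1.83 on the log2 scale (standard error 0.415, edgeR adjusted p = 0.000125). Neb fell by 1.08 (adjusted p = 8.62e-06), with 14.4 to 39.8 CPM in CR and 20.3 to 25.5 CPM in PR tumors. Myot fell by 1.02, Ckm by 0.80, Csrp3 by 0.63, Actn2, the alpha-actinin that crosslinks actin at the Z disc, by 0.62 and Myh2 by 0.40. Acta1 had -0.34 (adjusted p = 0.201) and Des 0.27 (adjusted p = 0.214).

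Changes with time also followed transcript length. Across 9223 genes with an annotated length, Spearman's rho between length and log2 fold change was -0.354 at Day+3 against Day-1, -0.259 at Day+7 against Day-1 and -0.0664 at Day+7 against Day+3. Lengths were found for 69.9% of the genes tested, fewer than needed to stand for all of them, so the values over all genes are void as a check and describe only the genes with a length. For the 34 muscle genes, all with a length, rho was -0.388, -0.511 and -0.0918. At Day+3 against Day-1 the median log2 fold change was 0.46 over genes of up to 1000 bases and -0.47 over those above 8000 bases, the class of Neb. Between CR and PR tumors rho over all genes was -0.0681 at Day-1. These are correlations across genes, which are not independent replicates, and the part of length in the changes of the muscle genes was not tested. Casq2 (2556 bases) had 1.27, where genes with a length of 2000 to 4000 bases had a median of 0.04. Csrp3 (899 bases) had -0.63, where those of up to 1000 bases had 0.46. These medians have the same limit and are no check on either gene.

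**Figure D5:**
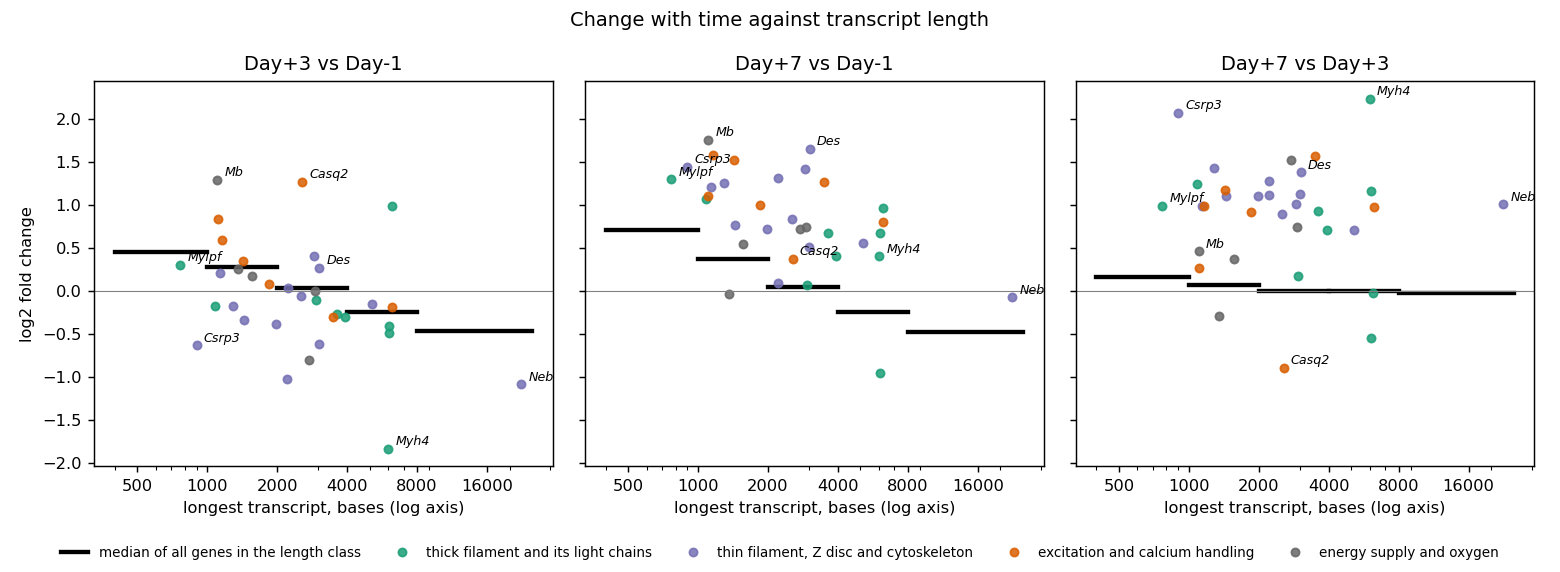
Log2 fold change of the 34 muscle genes (points, coloured by role) against the length of the longest transcript (log axis) in 3 comparisons of time points. Black bars give the median of the genes with an annotated length in each length class. Bars step down with length in the 2 comparisons with Day-1 (0.46 to -0.47 at Day+3) and are nearly level between Day+7 and Day+3, where most muscle genes still lie above them.

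At Day+7 against Day-1, 28 muscle genes were higher (43% of all genes) and 1 lower (42.8% of all genes), with a median log2 fold change of 0.79 against -0.01 over all genes. By role, 6 of 9 tested genes of the thick filament were higher, 11 of 13 of the thin filament and Z disc, 7 of 7 of calcium handling and 4 of 5 of energy supply. Des rose by 1.65 (standard error 0.186, edgeR adjusted p = 5.33e-11), from group medians of 95.4 and 57.5 CPM at Day-1. At Day+7 it measured 146, 149, 177, 241 and 484 CPM in CR and 139, 194, 244, 290 and 365 CPM in PR tumors, with 10 of 10 tumors above the Day-1 median. Mb rose by 1.76, Cav3 by 1.58, Art1 by 1.53, Csrp3 by 1.45, Actn3, the alpha-actinin of fast fibres, by 1.42, Mylpf by 1.30, Atp2a1 by 1.27 and Ankrd2 by 1.21. Casq1 rose by 1.001, Cacna1s by 0.81, Acta1 by 0.77, Ckm by 0.72, Myh1 by 0.68, Eno3 by 0.54 and Casq2 by 0.38. Without CT7_8 the numbers were 22 and 1, and without the tumors above 10 CPM of Krt5 they were 25 and 1.

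At Day+7 against Day+3, where the libraries were of similar depth, 27 muscle genes were higher (38.8% of all genes) and 2 lower (36.5% of all genes), with a median of 0.99 against 0.02 over all genes. All 13 genes of the thin filament and Z disc rose. Csrp3 measured 7.54, 8.04, 12.3, 14.8 and 26.9 CPM in CR and 8.60, 11.1, 19.9, 20.002 and 28.2 CPM in PR tumors at Day+7. Its highest value at Day+3 was 5.72 CPM, so the time points did not overlap, and it rose by 2.08 (standard error 0.236, edgeR adjusted p = 1.23e-10). Des (1.38) did not overlap either. How many of all genes did not overlap was not counted, and 75.3% of all genes were called in this comparison. Myh4 rose by 2.24 (standard error 0.4661) to 50.1, 63.2, 65.1, 219 and 543 CPM in CR and 64.6, 76.0, 83.0, 223 and 255 CPM in PR tumors. At both groups' Day+7, 3 tumors lay between 50 and 84 CPM and 2 above 200. Atp2a1 rose by 1.57, Ckm by 1.53, Actn2 by 1.13, Acta1 by 1.10, Neb by 1.01 and Ankrd2 by 0.99. Mb had 0.47 (adjusted p = 0.118). Without the tumors above 10 CPM of Krt5 the numbers were 26 and 1, without CT7_8 24 and 3, and without the PR Day+3 tumor CT3_5 28 and 1.

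The exceptions were Casq2 and Myh2. Casq2 fell by 0.89 from Day+3 to Day+7 (adjusted p = 8.32e-06, edgeR), to 1.23, 1.33, 1.40, 1.73 and 2.65 CPM in CR and 1.39, 1.48, 1.97, 1.98 and 3.39 CPM in PR tumors, and was then close to its Day-1 levels. Myh2 was the only muscle gene called lower in all 3 comparisons of time points. It measured 11.9, 24.4 and 47.6 CPM in CR and 11.2, 25.5 and 44.6 CPM in PR tumors at Day-1 (lowest, median, highest). At Day+7 it measured 4.05, 8.72, 9.27, 16.5 and 25.6 CPM in CR and 9.78, 10.1, 11.6, 17.9 and 21.6 CPM in PR tumors, a fall of 0.95 against Day-1 (standard error 0.218, adjusted p = 0.000112, edgeR) and of 0.55 against Day+3. Without the tumors above 10 CPM of Krt5 its change at Day+3 against Day-1 was -0.18 and did not pass. Myh1, which shares the most sequence with Myh2, rose by 0.68 at Day+7 against Day-1. At Day+3 against Day-1 Myh1 had -0.48 (adjusted p = 0.139, edgeR).

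Most tested genes of muscle precursors and of embryonic muscle were also higher at Day+3 and Day+7 than at Day-1. Of 17 listed, 11 were tested, of which 8 were higher and 0 lower at Day+3 against Day-1 (37.9% and 39.6% of all genes), and 8 higher and 2 lower at Day+7 against Day-1 (43% and 42.8% of all genes). Myog, the transcription factor myogenin that starts the last step of muscle differentiation, measured 0.440, 1.03 and 1.58 CPM in CR and 0.380, 0.938 and 1.80 CPM in PR tumors at Day-1. Its CR and PR medians were 1.74 and 2.49 CPM at Day+3 and 4.81 and 4.72 CPM at Day+7, a rise of 1.13 and of 2.38 on the log2 scale over Day-1 (edgeR adjusted p = 2.6e-07 and 2.01e-17). Myl4, the embryonic light chain, rose by 1.51 and 1.03. Chrna1, a subunit of the muscle acetylcholine receptor, rose by 1.30 at Day+3 and was lower at Day+7 (-0.66). Ncam1, an adhesion molecule of muscle and nerve, rose by 0.91 at Day+3 and was lower at Day+7 (-0.25). Myod1 was too low to be tested.

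Other cell types also changed with time. At Day+7 against Day-1, 12 of 12 T cell genes, 6 of 6 red blood cell genes, 9 of 12 fat cell genes and 7 of 10 genes of nerve and Schwann cells were higher, as were 43% of all genes. Summed fat cell genes went from 221 to 551 CPM over both groups' Day-1 tumors to 712 to 1515 CPM at Day+7. Of these sums Lpl, lipoprotein lipase, made up a mean of 85.6 CPM at Day-1 and of 577 CPM at Day+7, whereas Car3, a carbonic anhydrase of fat and muscle, had means of 73.6 and 79.1 CPM and did not pass. Summed genes of nerve and Schwann cells went from 71.2 to 119 CPM at Day-1 to 280 to 400 CPM at Day+7. Summed mesothelial genes, led by Efemp1 and Msln, the surface antigen mesothelin, lay at 1325 to 1664 CPM at Day-1 and at 672 to 1590 CPM at Day+7. Their part in the rise of the muscle genes was not tested.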

How the data were processed

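RNA from frozen AB1-HA tumors was sequenced as single-end reads (50 bases by the labels, 100 by the methods). The authors assigned reads with kallisto on GRCm38.p6 and deposited whole-number counts per gene symbol, 1 column per tumor. Its version and the step from transcripts to genes are not given in the sources used here. The last entry, which was incomplete, was left out, and symbols after it were not analysed here. Totals are therefore those of the 46011 entries used, 10227681 to 19446596 per tumor. A name used before stood at 2 entries. A count of 0 allows up to 3 counts, which covers counting error only.

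Counts were fitted over all genes with edgeR 4.0.16 (R 4.3.3, TMM library sizes, filterByExpr, quasi-likelihood test in its older form, Benjamini-Hochberg, FDR under 0.1). CR and PR were compared in the tumors of 1 time point, and time points and differences of differences in a model of 6 groups over 46 tumors. Standard errors are the log2 fold change divided by the root of the F statistic. Log2 CPM used a prior count of 2. Alternatives were DESeq2 1.42.0, limma-voom 3.58.1, DESeq2 size factors, other filters, an FDR under 0.05, the revised quasi-likelihood method, a keratinocyte score as covariate, the title number as a replicate block, other sets of tumors and each tumor left out. The fit was tested on simulated data with the same spread for all genes, narrower than that of any tested muscle gene. It therefore does not tell how well changes of the muscle genes would be found. The muscle genes and lists were chosen with earlier results of these data known, so no p is given for a list. Group values were printed for the 3 most abundant genes of each role, the genes called (up to 6 by p in each comparison) and those of widest and narrowest spread, from other lists for up to 4 genes by abundance and 3 by p, and for the 10 genes most alike, of which 1 is not reported here. Myl1, Myh2, Lmod3, Mylk2, Jsrp1 and Actn3 were named after their values were seen. Transcript lengths and shared words came from GENCODE M21 on GRCm38.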

Additional observations from a re-analysis of the deposited data

Results flagged for a closer look

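The 26 values tested (muscle genes and the sum of all 36) were read for single tumors that stood apart in the groups of 5 (104 groups in all), by the gap to the nearest tumor over the range of the group. In such a test chance alone marks about 1 group in 20, and muscle genes move together, so marks are not independent. The CR Day+7 tumor CT7_8 stood apart for Acta1 (579 CPM, next 189.2), Des (483.9, next 241), Myot (19.45, next 4.49), Mylk2 (14.26, next 6.50), Myh1 (202.6, next 78.7), Actn2 (40.37, next 15.1), Eno3 (149, next 68.9) and the sum of the 36 genes (3712, next 1608). In the PR Day+3 group, tumor CT3_5 stood apart with a low Myh4 (17.2 CPM, next 26.9) and CT3_9 with a high Ckm (27.64 CPM, next 22.2). No muscle gene differed between time points in its difference between CR and PR by the test of that difference (edgeR, 0 of 34 called in both comparisons, 1 at an unadjusted p under 0.05 in each, DESeq2 and limma-voom 0).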

How the results depend on the processing

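Numbers of called muscle genes, both directions together, stayed within 1.5 times the reported ones under every alternative, apart from single tumors left out. Leaving out each tumor gave 0 to 2 calls between CR and PR at Day-1, 0 to 1 at Day+3 and 0 to 0 at Day+7. Against Day-1 it gave 5 to 9 higher and 6 to 9 lower at Day+3, and 22 to 28 higher and 1 to 1 lower at Day+7. At Day+7 against Day+3 it gave 24 to 28 higher and 1 to 3 lower, and 0 for both differences of differences. The fewest higher at Day+7 were without CT7_8, and the most higher at Day+3 without CT10. The log2 fold change of Acta1 between CR and PR at Day+7 (0.004) was -0.26 in limma-voom and -0.70 to 0.21 in the fits without 1 tumor, below 0 without CT7_8 (-0.70), CT7_1 (-0.11), CT7_7 (-0.11) or CT7_10 (-0.06). The cause was not tested. Among all genes, edgeR called 1 between CR and PR at Day-1 and DESeq2 443, with 0 muscle genes in both. At Day+3 and Day+7 these were 0 and 3, and 0 and 5, and for the differences of differences 0 and 3, and 1 and 40. With the keratinocyte score as covariate, 8 genes were called for the difference at Day+7 against Day-1. The model of 46 tumors called 8 genes between CR and PR at Day-1. Without a filter 13497, 15316 and 12261 genes were called with time, of 30493 tested. Ckm at Day+3 against Day-1 did not pass in limma-voom (-0.59), and Myh2 there did not at an FDR under 0.05 or with DESeq2 size factors (-0.37). Title numbers shared between time points did not pair the tumors: 5 of 30 same-numbered pairs had deviations that correlated above 0.1 (median 0.00781), and 3 of 30 tumors correlated best with their own number. With this number as a replicate block, 7 muscle genes were higher and 6 lower at Day+3 against Day-1, 25 and 1 at Day+7 against Day-1, 25 and 2 at Day+7 against Day+3, and 0 in both differences of differences. Depth limited the slow light chains, with at most 9 counts of Myl2 and 6 of Myl3 in any tumor. It also limited Myh7, with at most 20 counts in any tumor.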
